A study of Mus musculus with 6 samples.

Results

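HCN channels are hyperpolarization-activated, cyclic nucleotide-gated cation channels that open when a neuron hyperpolarizes and carry the current called I-h, which sets the resting potential and the way that dendrites sum their inputs. Binding of cAMP to the channel makes it open more readily, and in prefrontal pyramidal neurons the channels sit largely on dendrites and spines. Pex5l, better known as TRIP8b, is their auxiliary subunit, which binds the channel's C-terminal tail and its cyclic nucleotide-binding domain, steers the channel to or from the cell surface and opposes the action of cAMP. The scaffold protein Shank3 binds HCN channels, so the mRNA levels of *Hcn2*, *Hcn3*, *Hcn4* and *Pex5l* were examined in the medial prefrontal cortex (mPFC) of mice that overexpress *Shank3*. These 4 genes were taken by their symbols from the 18254 genes of the deposited table, and all 4 were among the 16714 genes tested.

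The mPFC was dissected from male *Shank3* transgenic (TG) mice, which carry an EGFP-*Shank3* transgene in addition to their own *Shank3* alleles, and from their wild-type (WT) littermates. Both genotypes were in the C57BL/6J background and were 10 to 12 weeks old. There were 3 libraries of each genotype (TG-1, TG-2 and TG-3, and WT-1, WT-2 and WT-3). Tissue from a pair of mice went into each library, which makes a replicate a pool of animals. The promoter of the transgene and the cells in which it is active were not given in the sources used here. The values are read counts per gene that the authors divided by a size factor of the library, here called normalized read counts, and a library summed to between 28363967 and 29447717 of them.

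*Shank3* itself had 17470, 19004 and 16310 normalized read counts in TG-1, TG-2 and TG-3 and 8374, 8173 and 6791 in WT-1, WT-2 and WT-3, which matched the labels. TG-3 and WT-3 stood apart from the other libraries in both genotypes, and the differences of the 4 genes, *Pde8a*, *Grm2* and *Pex5* between the genotypes are also given without them. The 6 markers of excitatory neurons summed to 141484 to 146833 normalized read counts in the libraries numbered 3 and to 106728 to 117868 in the other 4, a gap that lay mainly in *Nrgn*. Markers of oligodendrocytes were lower in *Shank3* TG (75480 to 98062 against 112379 to 114466), and the markers *Eomes*, *Scgn* and *Th* of the olfactory bulb were high in TG-2 (149, 53.3 and 170 normalized read counts, against at most 30.6, 3.77 and 64.9 elsewhere), while the fourth marker of that list, *Dcx*, lay between 1292 and 1641 in all libraries. In bulk tissue, a lower level of an mRNA in each cell and a smaller number of the cells that make it cannot be told apart.

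The TPR domains of Pex5l grip the last residues of the channel, which are encoded at the very end of the coding sequence. The last 30 coding bases of the longest coding transcript of each channel gene, stop codon included, are shown here because they encode the tail by which HCN channels are bound. They are read 5′ to 3′ along the mRNA from the GENCODE M21 transcripts of GRCm38, and the capitals mark the last 3 codons before the stop.
Hcn2: gcgcgctcgcgcctctctTCCAACTTGtga
Hcn3: agaggtccccaaatttctGCCAACATGtga
Hcn4: gtacgctccaaactgccgTCTAATTTAtga
These bases lie at chr10:79735511-79735540 on the plus strand for *Hcn2*, at chr3:89147599-89147628 on the minus strand for *Hcn3* and at chr9:58860734-58860763 on the plus strand for *Hcn4*. Of the 9 bases in capitals, *Hcn3* shared 7 with *Hcn2*, and *Hcn4* shared 6 with it. By the standard genetic code, the capitals of *Hcn4* encode the same residues as those of *Hcn2*, and those of *Hcn3* do not. The counts of shared bases therefore do not rank the tails by their residues.

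The 4 genes covered a wide range of levels, from *Hcn2* and *Pex5l* down to *Hcn3* and then *Hcn4* in every library of both genotypes. Since a long mRNA gives more reads than a short one, levels of different genes were compared per kilobase of the longest coding transcript. *Hcn2*, the channel with a strong response to cAMP, had 1253 ± 129 normalized read counts per kilobase over all 6 libraries (SD, n = 6). *Pex5l* had 1201 ± 229, and the order of these neighbours was not fixed, since *Hcn2* was the higher of them in 4 of 6 libraries. *Hcn3*, which responds little to cAMP, had 126 ± 10.9 normalized read counts per kilobase and lay 10.0-fold below *Hcn2*, with a range of 8.59-fold to 11.4-fold over the libraries. *Hcn4*, the slow channel known from cardiac pacemaker cells and the thalamus, was the lowest with 15.3 ± 2.62, which was 8.37-fold below *Hcn3* (7.03-fold to 11.1-fold). No value of *Hcn3* in any library reached one of *Hcn2* or *Pex5l*, and no value of *Hcn4* reached one of *Hcn3*.

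**Figure D1:**
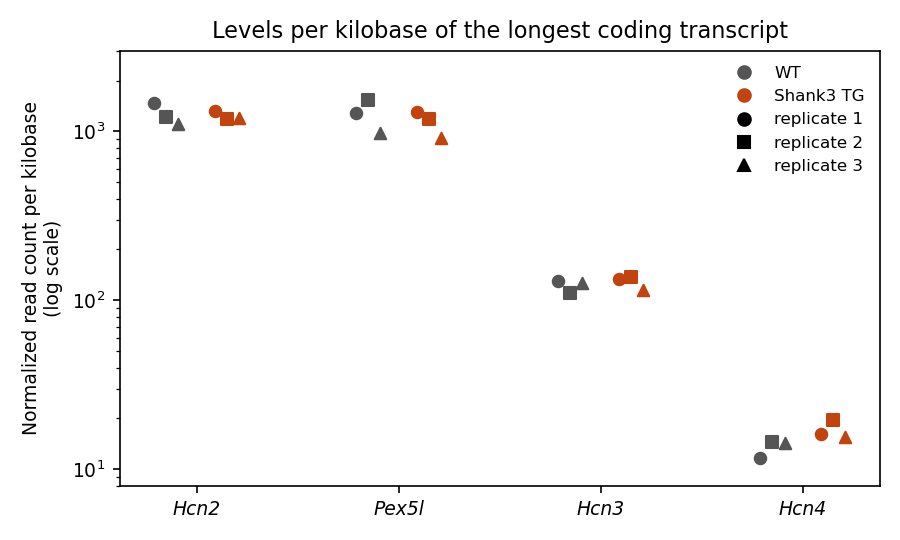
Normalized read counts per kilobase of the longest coding transcript (log scale) for *Hcn2*, *Pex5l*, *Hcn3* and *Hcn4*, with a point for each of the 6 libraries, WT in grey and *Shank3* TG in orange, and the replicate number as the marker. *Hcn2* and *Pex5l* overlap around 1253 and 1201, *Hcn3* lies near 126 and *Hcn4* near 15.3.

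The length used mattered for *Pex5l* alone. GENCODE M21 lists 12 transcripts of *Pex5l*, and its longest coding transcript has 4206 bases, whereas all its exons together cover 8846. Per kilobase of all exons, *Pex5l* had 571 ± 109 normalized read counts, and *Hcn2* was then 2.24-fold higher and above it in all 6 libraries. *Hcn2* and *Hcn4* have the same length by either measure, 3195 and 6118 bases, and *Hcn3* has 4002 or 4154. Isoforms of Pex5l with different N-termini differ in whether they raise or lower HCN at the cell surface, and the deposited values are sums over a gene, so the isoforms were not resolved here.

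Taken per kilobase, *Hcn2* made up 88.3% to 91.2% of the summed level of the 3 channel genes in a library. *Hcn3* made up 8.04% to 10.3% and *Hcn4* 0.726% to 1.46%. The share of *Hcn4* was 1.24% ± 0.192 in *Shank3* TG and 0.982% ± 0.225 in WT (SD, n = 3 each). These groups overlapped, since TG-1 had 1.11% and WT-3 had 1.15%, and the exact two-sided permutation test gave p = 0.2. With 3 libraries against 3 that test cannot give a p-value under 0.1. At equal replicate number the share of *Hcn4* was higher in *Shank3* TG in 3 of 3 pairs, and an exact two-sided sign-flip permutation test over the pairs gave 0.25, the smallest value that 3 pairs allow. For the shares of *Hcn2* and of *Hcn3* the same exact permutation test gave p = 0.5 each.

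The comparison of genotypes asked whether overexpression of *Shank3* is accompanied by a change in the mRNAs of the channels that its protein binds. On log2(normalized read count + 1), none of the 4 was past the adjusted threshold of 0.05 in limma's two-sided moderated test, where each adjusted p-value came to 1.00. The background was 0% of the 16714 tested genes past the adjusted threshold, and 2.01% (336 genes) at an unadjusted p-value under 0.05. At that unadjusted threshold, 0 of the 4 genes passed. The call of *Hcn4* at the unadjusted threshold depended on the setting. Its unadjusted p-value was 0.0474 without a mean-variance trend, where 2.90% of all genes lay under 0.05, and 0.0154 with an empirical null, where 7.27% did. With limma's robust option it was 0.0805. *Shank3* had the smallest p-value in the table. After adjustment it was 0.0643 in limma's test, and 0.000437 once replicate number was added as a block.

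**Figure D2:**
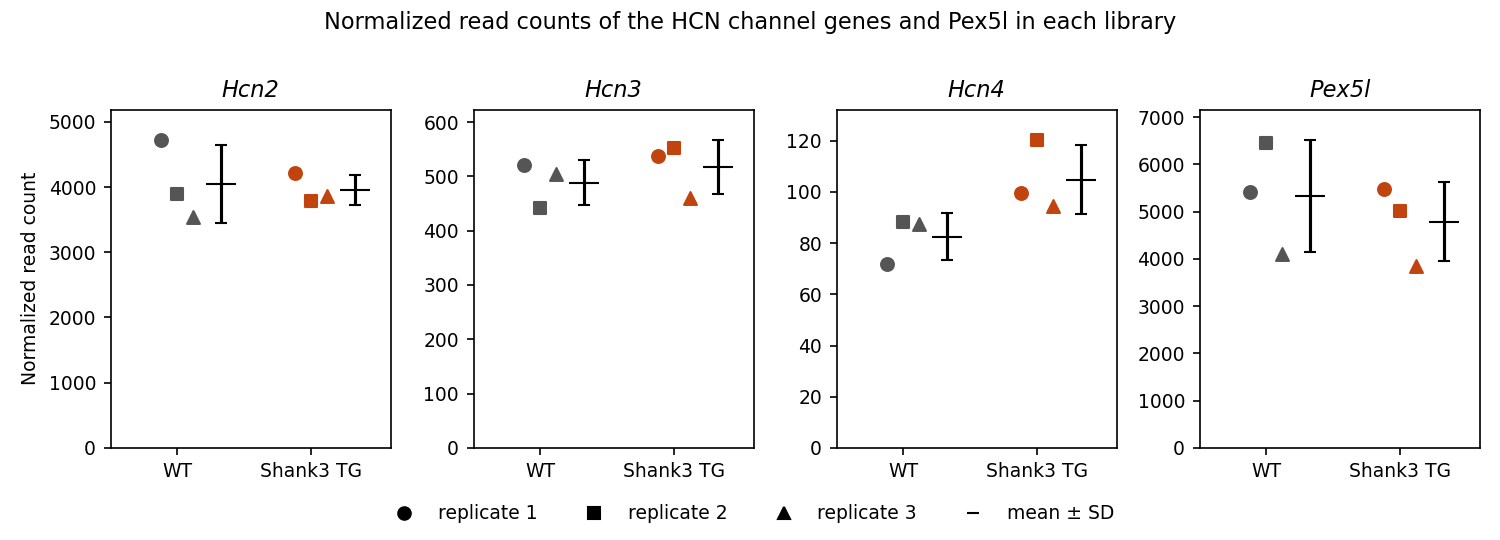
Normalized read counts (y axis, from 0, with its own scale in each panel) of *Hcn2*, *Hcn3*, *Hcn4* and *Pex5l* in the 3 WT (grey) and 3 *Shank3* TG (orange) libraries, with the replicate number as the marker and the mean ± SD beside the points. *Hcn4* is the gene whose groups are separate, 71.8 to 88.2 in WT and 94.7 to 120 in *Shank3* TG, and *Pex5l* is lowest in the libraries numbered 3 of both genotypes.

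*Hcn2* (ENSMUSG00000020331) lies on chromosome 10 from 79716634 to 79736108 on the plus strand. It had 4220, 3789 and 3857 normalized read counts in TG-1, TG-2 and TG-3, and 4715, 3894 and 3538 in WT-1, WT-2 and WT-3. WT-1 was the highest and WT-3 the lowest of all 6 libraries, so that the *Shank3* TG values lay inside the range of WT. The log2 fold change was -0.03 (standard error 0.11), a fold of 0.983 with a 95% confidence interval of 0.821 to 1.18, and the unadjusted p-value in limma's test was 0.829. The direction was not fixed, with 0.09 on the log2 scale without WT-1 and 0.0052 without TG-2, and it was -0.10 without both libraries numbered 3. Of the oligodendrocyte markers, 8 of 8 had a lower mean in *Shank3* TG. An unadjusted limma p-value under 0.05 was found for 7 of 8, against 2.01% of all tested genes, and 0 of 8 passed the adjusted threshold. Whether these markers had a part in the value of *Hcn2* was not tested.

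*Hcn3* (ENSMUSG00000028051) lies on chromosome 3 from 89146074 to 89160196 on the minus strand. Its normalized read counts were 537, 553 and 460 in TG-1, TG-2 and TG-3 and 520, 441 and 504 in WT-1, WT-2 and WT-3. The groups overlapped, with TG-3 below both WT-1 and WT-3. The log2 fold change was 0.08 (standard error 0.11), a fold of 1.06 with a 95% confidence interval of 0.883 to 1.27, and limma's unadjusted p-value was 0.494. The difference at equal replicate number turned from 0.05 and 0.33 on the log2 scale for replicates 1 and 2 to -0.13 for replicate 3. Without both libraries numbered 3 the log2 fold change was 0.19 (limma, unadjusted p = 0.156), and without WT-2 it was 0.01. The neighbouring gene *Pklr* overlaps the end of *Hcn3* on the opposite strand in GENCODE M21, and it was not analysed here.

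*Hcn4* (ENSMUSG00000032338), on chromosome 9 from 58823412 to 58863175 on the plus strand, differed most between the genotypes. It had 99.6, 120 and 94.7 normalized read counts in TG-1, TG-2 and TG-3, and 71.8, 88.2 and 87.5 in WT-1, WT-2 and WT-3. Each *Shank3* TG library lay above each WT library, and the closest of them, TG-3 and WT-2, were 6.46 normalized read counts apart. Among the tested genes, 2.91% had all *Shank3* TG libraries above all WT libraries, and *Hcn4* was 1 of the 4 genes described here. The means were 105 ± 13.5 and 82.5 ± 9.26 (SD, n = 3 each), or 0.34 higher on the log2 scale (standard error 0.17), a fold of 1.27 with a 95% confidence interval of 0.969 to 1.65.

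This difference did not pass the test. The unadjusted p-value of *Hcn4* in limma's test was 0.0764, which ranked 530 of 16714 genes, and the exact two-sided permutation test gave 0.1, the smallest value that 3 libraries against 3 allow. At each replicate number *Hcn4* was the higher in *Shank3* TG, by 0.47, 0.44 and 0.11 on the log2 scale for replicates 1, 2 and 3, as were 11.6% of the tested genes. When 1 library at a time was left out, it stayed between 0.24 and 0.41, lowest without TG-2 and highest without TG-3. Without both libraries numbered 3 it was 0.45 (limma, unadjusted p = 0.0531). TG-2, the library with the highest *Hcn4*, was also the library with high olfactory bulb markers, and limma's unadjusted p-value was 0.237 without it. Without WT-1, the library with the lowest *Hcn4*, it was 0.219. *Tcf7l2*, a marker of the thalamus, a tissue rich in *Hcn4*, had 275, 99.7 and 166 normalized read counts in TG-1, TG-2 and TG-3 and 132, 89.6 and 329 in WT-1, WT-2 and WT-3. *Prkcd*, another thalamic marker, had 277, 306 and 223 in TG and 238, 238 and 253 in WT in the same order, and *Lef1* had 233, 240 and 190 in TG and 263, 238 and 227 in WT. *Tcf7l2* was highest in TG-1 and WT-3, *Prkcd* in TG-2 and WT-3, and *Lef1* in TG-2 and WT-1 of their genotypes. Of the 4 thalamic markers, 2 had a log2 fold change above 0 and 0 had an unadjusted limma p-value under 0.05, and their sum, 2682 to 3128 over the 6 libraries, was mostly *Rora*. Markers of inhibitory neurons summed to 19501 to 19630 in *Shank3* TG and to 18827 to 19639 in WT. The part of other tissue in the *Hcn4* values was not tested.

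Ratios within a library do not depend on the size factor that scales it. The ratio of *Hcn4* to *Hcn2* was 0.0236, 0.0317 and 0.0245 in TG-1, TG-2 and TG-3 and 0.0152, 0.0226 and 0.0247 in WT-1, WT-2 and WT-3. WT-3 lay between the *Shank3* TG libraries, so the groups overlapped in this ratio although they did not in *Hcn4* alone. The exact two-sided permutation test gave p = 0.3 for *Hcn4* over *Hcn2* and p = 0.2 for *Hcn4* over *Hcn3*. At equal replicate number, *Hcn4* over *Hcn2* was higher in *Shank3* TG in 2 of 3 pairs and *Hcn4* over *Hcn3* in 3 of 3.

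*Pex5l* (ENSMUSG00000027674) lies on chromosome 3 from 32949408 to 33143247 on the minus strand. It had 5484, 5007 and 3855 normalized read counts in TG-1, TG-2 and TG-3, and 5409, 6459 and 4104 in WT-1, WT-2 and WT-3. The lowest library of each genotype was the one numbered 3, and the highest of all was WT-2. The means were 4782 ± 837 in *Shank3* TG and 5324 ± 1180 in WT (SD, n = 3 each). The log2 fold change was -0.15 (standard error 0.19), a fold of 0.904 with a 95% confidence interval of 0.671 to 1.22, and limma's unadjusted p-value was 0.455.

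*Pex5l* differed more between the replicate numbers than between the genotypes. TG-3 lay 26.5% below the mean of TG-1 and TG-2, and WT-3 lay 30.9% below the mean of WT-1 and WT-2. The library numbered 3 was the lowest of its genotype in both genotypes for 25.3% of the tested genes, but both differences were at least as large as the smaller *Pex5l* difference, 0.44 on the log2 scale, for 2.43% of them. Among the 2129 tested genes with a mean between 0.5 and 2 times that of *Pex5l*, 3.80% had a larger range over the 6 libraries. With a block for replicate number, the same log2 fold change of -0.15 had a standard error of 0.08 and a 95% confidence interval of -0.32 to 0.03, and limma's unadjusted p-value was 0.0888. The differences at equal replicate number were 0.02, -0.37 and -0.09 on the log2 scale, so most of the fitted value came from TG-2 and WT-2. The fitted value on the log2 scale moved to 0.0058 when WT-2 was left out, to 0.0016 when TG-3 was, to -0.32 when WT-3 was and to -0.17 when TG-3 and WT-3 both were.

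Markers of layer 5, the layer whose subcortically projecting neurons carry large I-h, summed to 15460 and 16479 normalized read counts in TG-3 and WT-3 and to between 12634 and 13790 in the other 4 libraries. They were thus higher in the libraries in which *Pex5l* was lower, with 4 of 7 markers higher in TG-3 and WT-3 than in all others. The same held for 3 of 6 markers of excitatory neurons and for 20.3% of all tested genes. Markers of astrocytes summed to 110851 and 113562 in TG-3 and WT-3 and to between 116282 and 128342 in the others, and those of microglia to 5598 and 5898 against 6450 to 7636, with 4 of 6 and 3 of 5 markers lower in TG-3 and WT-3 than in all others, as were 20.6% of all tested genes and *Pex5l* itself. None of these markers lay at or under 3 normalized read counts in every library. The part of these differences in the level of *Pex5l* was not tested. The ratio of *Pex5l* to *Hcn2*, auxiliary subunit to main channel, was 1.30, 1.32 and 1.00 in TG-1, TG-2 and TG-3 and 1.15, 1.66 and 1.16 in WT-1, WT-2 and WT-3, and the exact two-sided permutation test gave p = 0.6. WT-2 was the highest and TG-3 the lowest, so the genotypes overlapped in this ratio.

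**Figure D3:**
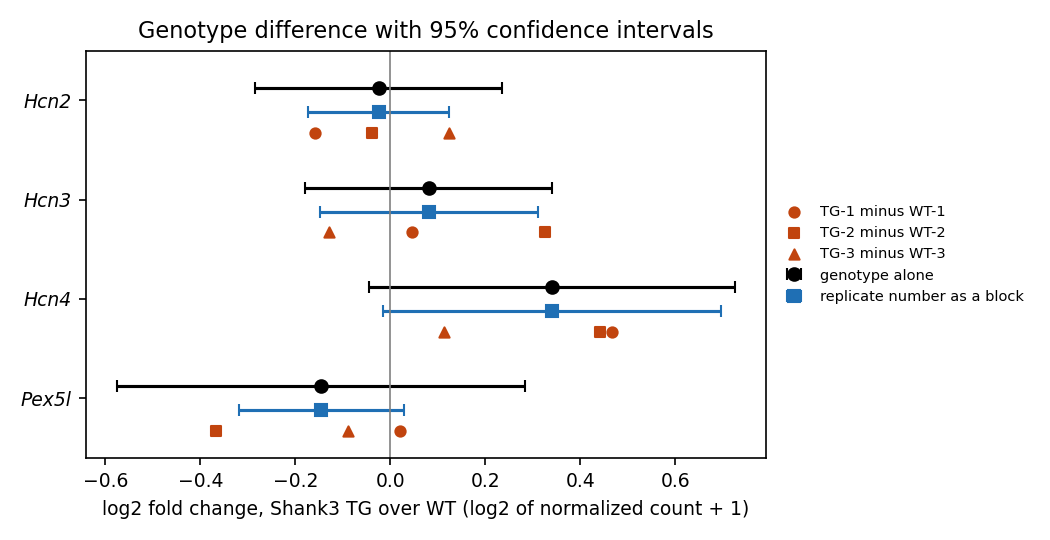
Log2 fold change of *Shank3* TG over WT (x axis, on log2 of the normalized read count + 1) for the 4 genes, with 95% confidence intervals from limma with the genotype alone (black) and with a block for replicate number (blue), and the difference at each replicate number below them (orange). All 8 intervals include 0, and the block narrows the interval of *Pex5l* most, from between -0.58 and 0.28 to between -0.32 and 0.03.

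None of the 4 genes was among the closest profiles of another over the 6 libraries. Likeness was measured as the root mean square difference between log2 profiles, each centred on its own mean, over 6 libraries and the 13454 other genes that averaged 50 or more normalized read counts. The closest genes to *Hcn2* were *Hhatl* (0.02) and *Iba57* (0.02). The closest to *Hcn3* were *Slc38a3*, a glutamine transporter, *1110002L01Rik* and *Mfng*, at 0.03 to 0.04. *Hcn4* was closest to *Cpne4* (0.05), and *Nox4* stood at 0.09. *Pex5l* was closest to *Hr* (0.03), *Scn4b* (0.04), a sodium channel beta subunit, and *Alkbh4* (0.05). Among the 4 genes, the smallest difference was that of *Hcn2* and *Hcn3* (0.15), with *Hcn3* 5045th in closeness to *Hcn2*. The best rank was that of *Hcn3*, 1950th in closeness to *Hcn4* (0.21), followed by *Hcn2*, 3984th in closeness to *Pex5l* (0.23). These values describe 6 libraries and were not tested.

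Around the channels, 19 genes were listed whose proteins are known to bind or modify HCN channels, with the Shank family included. Of the 18 tested, *Shank3* alone was under 0.05 without adjustment in limma's test. A log2 fold change above 0 was found for 11 of 18, against 48.6% of all tested genes, and the median was 0.04, against -0.0037 over all tested genes. *Nedd4l*, a ubiquitin ligase that acts on HCN channels, had 4463 ± 396 normalized read counts in *Shank3* TG and 4301 ± 117 in WT (SD, n = 3 each). *Magi2*, a scaffold that binds Hcn2, had the lowest log2 fold change of the list, -0.11 (standard error 0.09). *Shank1* and *Shank2* had log2 fold changes of 0.03 and 0.06, beside 1.18 (standard error 0.10) for *Shank3*.

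The genes that make and break down cyclic nucleotides, the ligands of the channels, were 23 in the table, all tested. *Pde8a*, a phosphodiesterase that degrades cAMP, was the only gene of this list under 0.05 without adjustment. It had 366, 466 and 418 normalized read counts in TG-1, TG-2 and TG-3 and 549, 531 and 587 in WT-1, WT-2 and WT-3. Each *Shank3* TG library lay below each WT library, as for 3.12% of the tested genes. The log2 fold change of *Pde8a* was -0.42 (standard error 0.11), and -0.39 without both libraries numbered 3 (limma, unadjusted p = 0.0224). Limma's p-value was 0.00606 before and 1.00 after adjustment, and 0.491 after adjustment with a block for replicate number, so *Pde8a* did not pass. Its difference went with the lower oligodendrocyte markers of *Shank3* TG, and the part of these cells in it was not tested. The adenylyl cyclases, which make cAMP, lay between -0.27 for *Adcy7* and 0.17 for *Adcy9* on the log2 scale. The value of *Adcy7* rested on TG-1, which had 159 normalized read counts against 291 to 393 in the other libraries. The most abundant cyclase, *Adcy1*, had 30683 ± 1560 normalized read counts in *Shank3* TG and 32759 ± 844 in WT. Over the list, 16 of 23 genes had a log2 fold change above 0, with a median of 0.07.

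Of the 6 subunits of protein kinase A, the main effector of cAMP beside the channels, 0 lay under 0.05 without adjustment in limma's test, and their log2 fold changes lay between -0.03 and 0.08. Of 18 receptors and G proteins that set cAMP, 0 passed the same unadjusted threshold and 9 had a log2 fold change above 0. With a block for replicate number there were 2, *Grm2* and the adenosine receptor gene *Adora1*, with adjusted p-values of 0.708 and 0.996. *Adra2a*, the alpha-2A adrenergic receptor that lowers cAMP near HCN channels in prefrontal spines, had 277 ± 43.0 normalized read counts in *Shank3* TG and 282 ± 10.5 in WT. *Grm2*, a metabotropic glutamate receptor that also lowers cAMP, had 2310, 2018 and 2523 in TG-1, TG-2 and TG-3 and 2013, 1874 and 2003 in WT-1, WT-2 and WT-3. Its groups did not overlap, by 5.10 normalized read counts between TG-2 and WT-1. The log2 fold change of *Grm2* was 0.21 (standard error 0.10), and 0.15 without both libraries numbered 3 (limma, unadjusted p = 0.15). Limma's unadjusted p-value was 0.0577 with the genotype alone. It was 0.00916 with a block for replicate number, where 4.98% of all genes lay under 0.05, and 0.708 after adjustment.

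The CNG and KCNH channels share the cyclic nucleotide-binding fold of the HCN family. Of the 12 tested, 0 lay under 0.05 without adjustment in limma's test, and the median log2 fold change was 0.08. The abundant KCNH genes *Kcnh7*, *Kcnh3* and *Kcnh1* had log2 fold changes of -0.04, 0.09 and 0.07. Of 10 genes of peroxisomal protein import, the pathway of Pex5 after which *Pex5l* is named, 0 passed the unadjusted threshold in limma's test, and their median was -0.0045. *Pex5*, the import receptor, had 1442 ± 44.6 normalized read counts in *Shank3* TG and 1336 ± 160 in WT, which is 0.12 higher on the log2 scale (standard error 0.10), and 0.05 higher without both libraries numbered 3. *Pex5l* was lowest in the libraries numbered 3, and the summed level of the import list was lowest there too, 6986 in TG-3 and 6510 in WT-3 against 7440 to 7577 in the others. Of the 10 genes, 5 were lower in TG-3 and WT-3 than in all others, against 20.6% of all tested genes. Another 2 were higher there than in all others, against 20.3% of all tested genes.

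**Figure D4:**
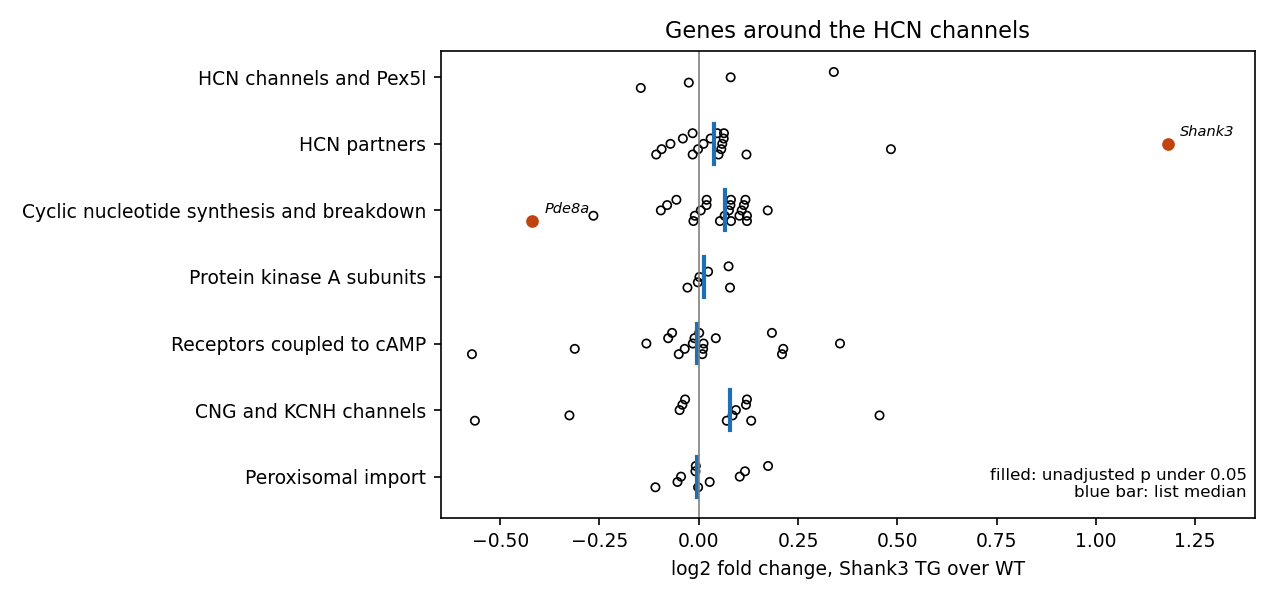
Log2 fold change of *Shank3* TG over WT (x axis) for the 4 genes and for the tested genes of 6 lists, with a point for each gene, filled where limma's unadjusted p-value was under 0.05, and a blue bar at the median of each list. Only *Shank3* (1.18) and *Pde8a* (-0.42) are filled, and the list medians lie between -0.0047 and 0.08.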

How the data were processed

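RNA was sequenced from the mPFC of 3 *Shank3* TG and 3 WT pools. The authors made stranded mRNA libraries, ran Salmon 0.9.1 against GRCm38 transcripts with its correction for GC bias, summed the estimates to genes by tximport in R 3.6.0 and scaled them by DESeq2 1.19.11 size factors. The deposited signal values are these normalized counts, which are not whole numbers, so a count model and counting intervals were not used. Names, positions and lengths came from GENCODE M21 for GRCm38, in which 18231 of 18254 genes were found.

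Genes averaging 5 or more normalized counts were tested in R 4.3.3 with limma 3.58.1 on log2(normalized count + 1), with the genotype alone, a mean-variance trend and Benjamini-Hochberg adjustment at 0.05. Fold changes on this scale understate those of low genes. The fits were tested on simulated data. The settings varied were the pseudocount (0.1 and 5), the filter (none, and a minimum mean of 50), upper quartile rescaling, quantile normalization, eBayes without a trend or with the robust option, a block for replicate number, a term for the libraries numbered 3, an empirical null, each library left out and both libraries numbered 3 left out. Replicate numbers were taken to pair the libraries, since the correlation across 16714 genes of deviations from the genotype means was 0.30, 0.33 and 0.62 for equal numbers and at most 0.27 otherwise. The margin was small for TG-1, with 0.30 for WT-1 and 0.27 for WT-2. The pairing of the libraries numbered 1 and 2 is thus an assumption, and it was read from the same values that it was used to test. Apart from the 4 genes and *Shank3*, genes were named where they had an unadjusted p-value under 0.05 or were among the most abundant of a list, with up to 3 closest profiles per gene; some of these are not reported here. *Adra2a*, *Magi2*, *Nedd4l*, *Pex5*, *Adcy7*, *Adcy9*, *Shank1*, *Shank2*, *Grm2* and *Adora1* and the markers were named after their values were seen. The genes and lists were chosen with earlier results of these data known.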

Additional observations from a re-analysis of the deposited data

How the results depend on the processing

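None of the 18 alternatives brought *Hcn2*, *Hcn3*, *Hcn4* or *Pex5l* past an adjusted p-value of 0.05 in limma's test. The lowest adjusted p-value was that of *Hcn4* with the empirical null, 0.484 (unadjusted 0.0154). *Hcn3* and *Hcn4* kept their direction under all 18 alternatives. With 1 library left out at a time, the log2 fold change ranged from -0.12 to 0.09 for *Hcn2*, from 0.01 to 0.16 for *Hcn3*, from 0.24 to 0.41 for *Hcn4* and from -0.32 to 0.01 for *Pex5l*. It reversed for *Hcn2* without TG-2 (0.0052) and without WT-1 (0.0899), and for *Pex5l* without TG-3 (0.0016) and without WT-2 (0.0058), as fewer libraries entered the fit. Under the other alternatives it stayed between -0.10 and -0.02 for *Hcn2*, 0.08 and 0.19 for *Hcn3*, 0.33 and 0.45 for *Hcn4*, and -0.17 and -0.14 for *Pex5l*. With the replicate block, the log2 fold changes were -0.03, 0.08, 0.34 and -0.15 as without it, and the block changed no call of the 4 genes. Over all genes, 0 had an adjusted p-value under 0.05 with the genotype alone, and 26 with the empirical null. There was 1 with upper quartile rescaling, with the robust option, with the replicate block, with the term for the libraries numbered 3 and without both of those libraries, and 0 to 1 with 1 library left out at a time. The causes were not tested. With 3 pools per genotype, the 95% confidence intervals were 0.969 to 1.65 for the fold of *Hcn4* and 0.671 to 1.22 for that of *Pex5l*.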
